A study of Rattus norvegicus with 6 samples.

Results

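Complement and coagulation factors are the plasma proteases, cofactors and inhibitors that the liver supplies to the blood, and the mRNAs of 40 of these genes were followed in rat liver. The genes were chosen by name, and each was taken at the locus that carried its symbol. The deposited table held 33022 loci, of which 32158 had a symbol. By symbol, 35 of the 40 genes were found. C2, C4b, C5, Cfb and Kng1 were not, and C4a and Mbl2 were listed at 0 in all 6 libraries. The other 33 genes averaged at least 1 FPKM across the libraries and were compared with all 10201 loci that met the same filter. FPKM counts fragments relative to transcript length (in kilobases) and to each 1000000 mapped fragments, so levels of different genes can be set side by side on this scale. The deposited values were also normalized between the 6 libraries.

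Male obesity-prone Sprague Dawley rats were fed a control diet (CD) or a Western diet (WD), which is rich in milk fat, sucrose and cholesterol, for 2 weeks, fasted overnight and given their own diet again briefly in the morning. For each diet, total liver RNA and RNA of a light and a heavy fraction of a sucrose gradient of the left liver lobe were sequenced. The light fraction held mRNAs carrying 3 or fewer ribosomes, and the heavy fraction those with 4 or more. Every library was a pool of 3 rats, so each of the 6 groups was measured in 1 library, no value has a replicate, and no test of a diet effect was possible.

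Complement is a chain of plasma proteins that marks and lyses microbes. It is started by C1 on antibody or by mannose-binding lectin on sugars, converges on C3, and ends in a pore built from the terminal components. Coagulation is a chain of zymogens that ends when thrombin turns fibrinogen into fibrin, and plasmin dissolves the clot. Hepatocytes make most of these proteins and secrete them through the endoplasmic reticulum, so the mRNAs are normally translated on membrane-bound polysomes. Fibrinogen, C3, C9 and several others are also known as acute-phase proteins, whose synthesis increases with interleukin-6.

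The tissue label was checked against markers. All 10 hepatocyte markers were found, with a summed level of between 47385 and 136054 FPKM per library. The 10 Kupffer cell markers summed to between 100.5 and 202 FPKM, and the 6 lymphocyte markers to between 3.08 and 6.01 FPKM. Of the 6 platelet markers, Gp9 and Ppbp were listed at 0 in every library, Gp1bb was not found, and the sum was between 0.440 and 9.27 FPKM. Fewer cells of a type and less RNA per cell cannot be told apart in such tissue libraries. The WD light library stood apart from the others. Its depth, taken as the fragments behind 1 FPKM of the same gene, was 2.34 times that of the CD heavy library. For the other libraries it was 1.02 to 1.57 times. Symbol-bearing loci of the WD light library had the highest FPKM sum (867734, against 617369 to 700724). Erythroid markers there summed to 545 FPKM, against 105 in the CD light fraction and 27.5 to 57.5 in the rest. The part of these differences in the results was not tested. Of the results that rest on the light fraction, only the diet comparison of the heavy to light ratio was repeated with total RNA as the denominator. The light fraction ratios of WD to CD and the heavy to light ratios within each diet were not repeated that way.

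Where a gene had 1 transcription start in the deposited table, the number of fragments behind its values could often be inferred from the values themselves, as it could for 20 of the 33 genes and for 7222 of the 10201 loci. The 20 genes had between 10 fragments (F7 in the CD light fraction) and 4068 fragments (Fga in WD total RNA). These numbers gave 95% counting intervals of ratios, which compare 2 libraries rather than the diets and cover counting error only, since amplified reads carry no molecular identifiers and need not stem from independent molecules. The bounds that the authors' software gives for each FPKM value were wider. The upper bound was 1.75 to 3.01 times the value, and the lower bound was 0 for 5 to 13 of the genes, depending on the library. Bounds of CD and WD overlapped for 33 of 33 genes in total RNA and in each fraction. The share of all loci with such overlap was not computed, so it is not shown to be particular to these genes.

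Levels spanned a wide range. In total RNA, CD first and WD second, they went from 8.95 and 15.4 FPKM for F7 to 3614 and 4259 FPKM for Fgb, with medians of 194 FPKM in both diets. Fgb ranked 23rd among all loci by its level in total RNA, Fgg 36th, Serpinc1 42nd, C3 43rd and Fga 51st, whereas F7 ranked 3335th. The 33 genes together held 2.47% (CD) and 2.86% (WD) of the FPKM of symbol-bearing loci in total RNA, 1.37% and 0.914% in the light fraction, and 2.97% and 3.15% in the heavy fraction. In each diet their share was thus lowest in the light fraction. The 3 fibrinogen chains made up 43.3% (CD) and 45.7% (WD) of the sum of the 33 genes in total RNA.

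**Figure D1:**
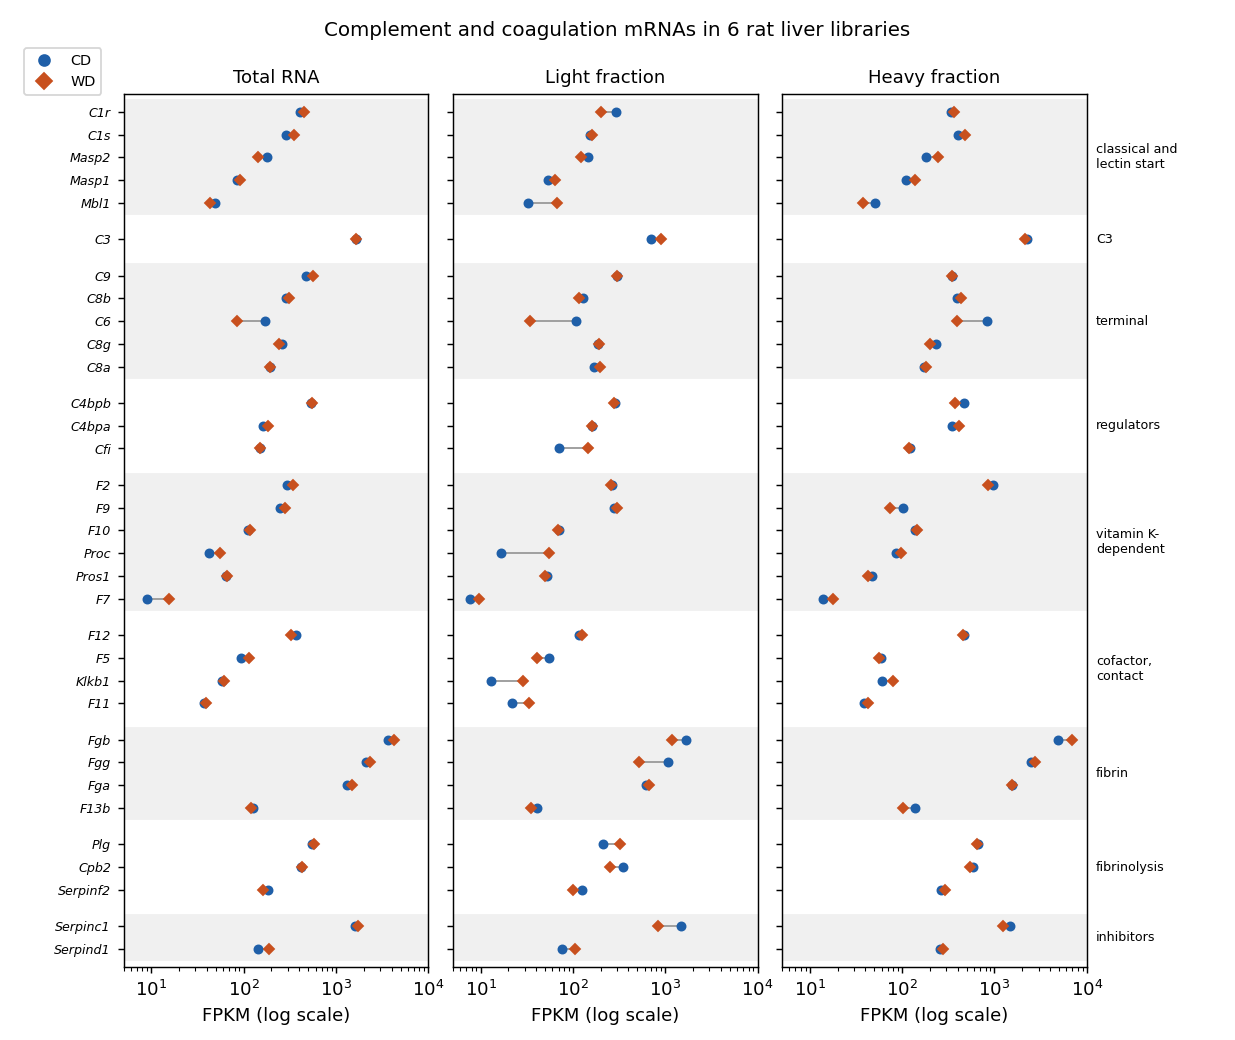
Levels of the 33 genes in FPKM on a log scale, 1 row per gene grouped by role, with a panel each for total RNA, the light fraction and the heavy fraction. Circles are the CD library, diamonds the WD library, and a line joins them. In total RNA the markers of CD and WD lie close together for most genes, with C6 and F7 the farthest apart, while in the light fraction C6, Fgg, Proc, Klkb1, Mbl1 and Cfi are spread out.

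To ask whether the WD altered the abundance of these mRNAs, the ratio of WD to CD was taken in total RNA after adding 0.1 FPKM to both values. Most of the genes differed little between the diets. The ratio lay between 0.75 and 1.5 for 31 of 33 genes, and the median log2 ratio was 0.09, beside 0.02 for all loci. One gene, F7, was at least 1.5-fold higher (17.7% of all loci were) and 1, C6, had a ratio of at most 0.75 (22.7% of all loci). Low loci scatter more. Among the 647 loci that averaged 100 FPKM or more, 4.64% were above the upper threshold, 12.7% were below the lower one, and the median was 0. Of the 33 genes, 24 had a ratio above 1 and 9 below, beside 5214 and 4796 of all 10201 loci and 308 and 323 of the 647 abundant ones.

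Counting intervals lay above 1 for 5 of the 20 genes with fragment numbers, beside 4.11% of loci, and below 1 for 1 gene, beside 4.32%. Among the 426 loci of at least 100 FPKM with fragment numbers, whose counts are closer to those of these genes, the shares were 13.8% and 12.9%. The 5 genes were Fgg (1.09), Fga (1.11), F9 (1.14), F2 (1.15) and C9 (1.17), so the increases resolved by counting were small. The 1 gene below was C6, with a larger difference (ratio 0.498). The intervals do not cover the choice of scale between the libraries. With the libraries rescaled to an equal FPKM sum, the median log2 ratio was 0.19 for the 33 genes and 0.12 for all loci.

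**Figure D2:**
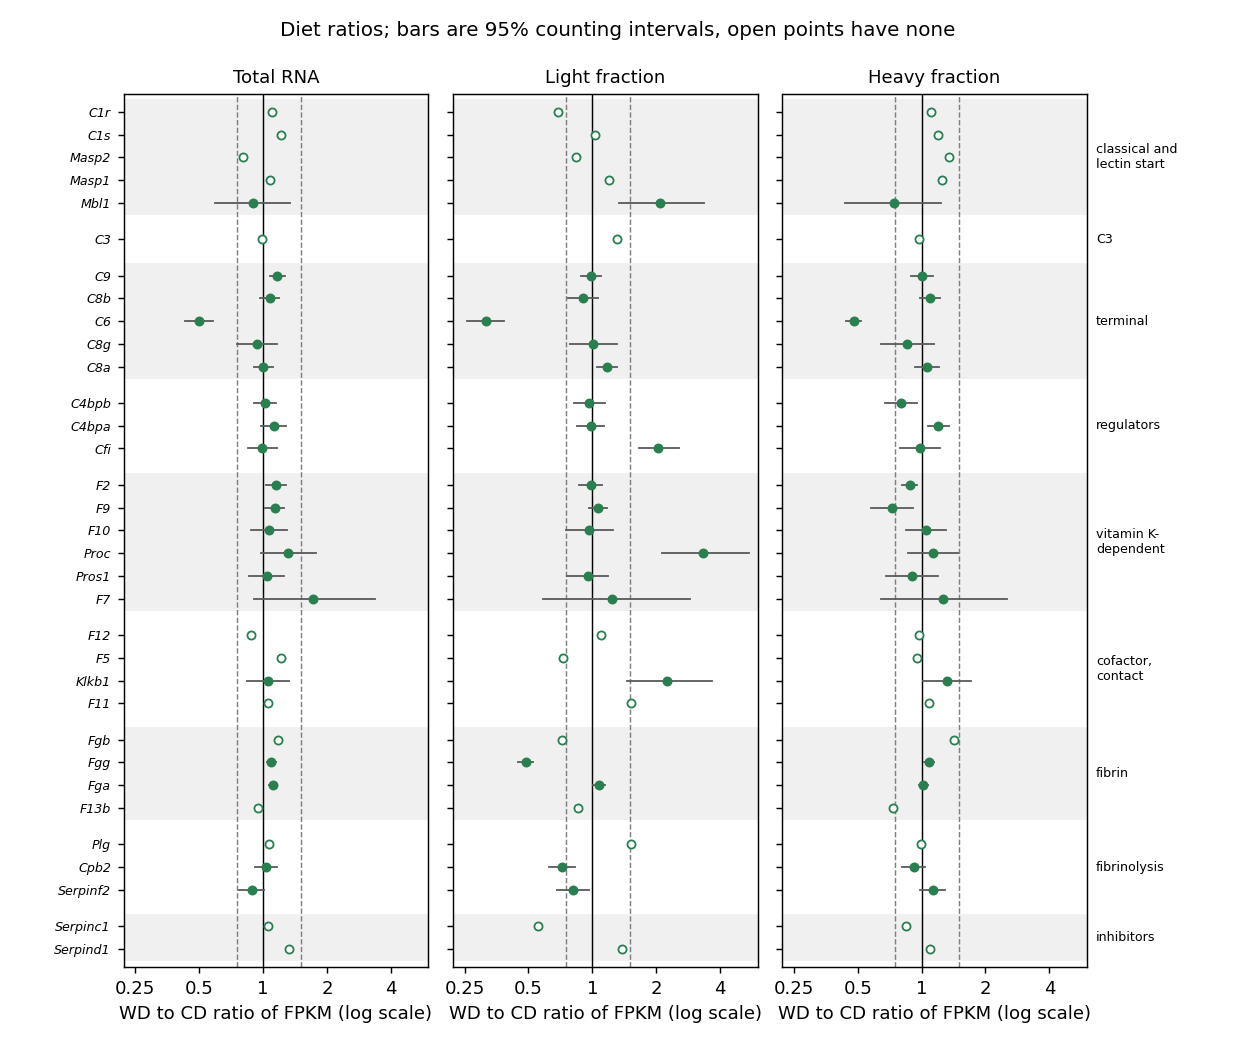
Ratio of WD to CD for the 33 genes in total RNA, the light fraction and the heavy fraction, on a log scale, with dashed lines at 0.75 and 1.5. Filled points carry a 95% counting interval and open points have none. Ratios in total RNA cluster near 1 except for C6 (0.498) and F7 (1.71), and ratios in the light fraction are spread from 0.314 to 3.31.

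C6, a terminal component that joins the membrane attack pore after C5b, had the lowest ratio of WD to CD in all 3 kinds of RNA. It was at 169.8 FPKM (CD) and 84.5 FPKM (WD) in total RNA, at 109 and 34.2 FPKM in the light fraction, and at 821 and 393 FPKM in the heavy fraction. The WD library was the lower one each time. The ratios were 0.498 in total RNA (counting interval 0.428 to 0.578, from 544 and 259 fragments), 0.314 in the light fraction (0.255 to 0.384) and 0.478 in the heavy fraction (0.439 to 0.52). C6 lies on chromosome 2 from 54466279 to 54533797 in Rnor_6.0, the assembly to which the authors aligned the reads. The bounds of the authors' software overlapped between the diets for C6 as for the other genes.

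The other terminal components differed little in total RNA. C9, whose copies form the ring of the pore, was at 478 (CD) and 558 FPKM (WD) in total RNA, 301 and 297 FPKM in the light fraction, and 345 and 346 FPKM in the heavy fraction. C8b, which encodes the beta chain of C8, was at 286 and 307 FPKM, 129 and 116 FPKM, and 397 and 433 FPKM. Their ratios in total RNA were 1.17 (1.08 to 1.26) for C9 and 1.07 (0.968 to 1.19) for C8b. The ratios were 1.00 (0.907 to 1.11) for C8a and 0.938 (0.756 to 1.16) for C8g, which encode the other chains of C8. At the locus of Hc, for which RefSeq lists C5 as a synonym, total RNA held 109 (CD) and 130.3 FPKM (WD), the light fraction 82.7 and 82.0 FPKM, and the heavy fraction 132 and 154 FPKM. C6 therefore stood below every other terminal component measured in its ratio of WD to CD.

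Among the genes that start the classical and lectin pathways, the proteases C1r and C1s, which sit in the C1 complex, had the highest levels. C1r was at 406 (CD) and 448 FPKM (WD) in total RNA, 294 and 203 FPKM in the light fraction, and 335 and 369 FPKM in the heavy fraction. C1s was at 288 and 349 FPKM, 155 and 160.0 FPKM, and 399 and 478 FPKM. Both mRNAs were higher in WD in total RNA, with ratios of 1.10 for C1r and 1.21 for C1s, and their loci are adjacent on chromosome 4 (157125965 to 157155636, with 6762 bases between them). Masp2, the protease that cleaves C4 in the lectin pathway, was at 178 and 143 FPKM in total RNA, 146 and 122 FPKM in the light fraction, and 183 and 245 FPKM in the heavy fraction. Its ratio was the second lowest of the 33 genes in total RNA (0.806) and the second highest in the heavy fraction (1.34). Masp1 had ratios of between 1.08 and 1.25 in the 3 kinds of RNA.

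Mbl1, a mannose-binding lectin, was at 48.5 (CD) and 43.4 FPKM (WD) in total RNA, 32.3 and 67.1 FPKM in the light fraction, and 51.3 and 37.9 FPKM in the heavy fraction. WD was the higher library in the light fraction and the lower in the heavy fraction. The ratios were 2.08 (1.34 to 3.35, from 25 and 113 fragments) and 0.739 (0.435 to 1.24, from 37 and 28 fragments). Its paralog Mbl2 was listed at 0 in all 6 libraries on chromosome 1 (248428098 to 248463139). The estimate there was marked as successful in all 6 libraries, which does not show whether the mRNA was absent. The same holds for C4a, listed at 0 on chromosome 20 (2651598 to 2678141), whereas a second locus of chromosome 20 (4302343 to 4508214) that merges C4a and C4b, the near-identical copies of the gene for C4, held 39.3 and 40.2 FPKM in total RNA, 7.50 and 8.65 FPKM in the light fraction, and 30.1 and 38.3 FPKM in the heavy fraction. A merged locus of C2 and Cfb, the paralogous proteases of the classical and alternative convertases (chromosome 20, 4530341 to 4561152), held 354 and 367 FPKM, 170.2 and 168 FPKM, and 543 and 531 FPKM. Reads of the merged genes cannot be assigned to 1 of them, and neither locus is counted among the 33 genes.

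C3, on which all pathways converge, was at 1653 (CD) and 1629 FPKM (WD) in total RNA, 696 and 904 FPKM in the light fraction, and 2237 and 2168 FPKM in the heavy fraction. CD and WD were close in total RNA (ratio 0.985) and in the heavy fraction (0.969), and WD was higher in the light fraction (1.30). Of the regulators, C4bpb and C4bpa encode the chains of the C4b-binding protein, a cofactor for the degradation of C4b. C4bpb was at 533 and 546 FPKM in total RNA, 287 and 277 FPKM in the light fraction, and 466 and 373 FPKM in the heavy fraction. C4bpa was at 162 and 182 FPKM, 162 and 159 FPKM, and 345 and 413 FPKM. In the heavy fraction the 2 chains differed in direction, with ratios of 0.799 (0.674 to 0.947) for C4bpb and 1.20 (1.07 to 1.34) for C4bpa, although the loci lie next to each other on chromosome 13 (47342078 to 47397890). Cfi, the protease that cuts C3b and C4b, was at 151 and 150.0 FPKM in total RNA, 70.4 and 144 FPKM in the light fraction, and 122 and 119.9 FPKM in the heavy fraction. WD exceeded CD in the light fraction by a ratio of 2.05 (1.65 to 2.56) and was close to it elsewhere.

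The 6 vitamin K-dependent factors had ratios of WD to CD of between 1.04 and 1.71 in total RNA. The counting interval excluded 1 for F2 and F9 and included it for the other 4. F2, which encodes prothrombin, was at 297 (CD) and 342 FPKM (WD) in total RNA, 265 and 260.0 FPKM in the light fraction, and 967 and 851 FPKM in the heavy fraction. F9, the zymogen that activates factor X with factor VIII, was at 248 and 281 FPKM, 281 and 299 FPKM, and 102 and 73.7 FPKM. For both genes WD was higher in total RNA, by 1.15 (1.03 to 1.28) for F2 and 1.14 (1.03 to 1.26) for F9, and lower in the heavy fraction, by 0.88 (0.813 to 0.953) and 0.726 (0.58 to 0.907). F10, which encodes factor X, had ratios of between 0.969 and 1.07.

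F7, the factor that starts coagulation together with tissue factor, had the highest ratio in total RNA and the lowest level of the 33 genes. It was at 8.95 (CD) and 15.4 FPKM (WD) in total RNA, 7.70 and 9.56 FPKM in the light fraction, and 14.1 and 17.8 FPKM in the heavy fraction. The ratio of 1.71 in total RNA rested on 17 and 28 fragments, and its counting interval of 0.91 to 3.35 included 1, so no difference in F7 was detectable at this depth. Proc, the zymogen of the anticoagulant protein C, was at 42.6 and 55.9 FPKM in total RNA, 16.7 and 55.5 FPKM in the light fraction, and 86.5 and 98.0 FPKM in the heavy fraction. WD was higher in all 3, most of all in the light fraction (3.31, interval 2.12 to 5.45, from 22 and 159 fragments), while the interval in total RNA (0.973 to 1.78) included 1. Pros1, the cofactor of protein C, was at 63.8 and 66.4 FPKM, 52.2 and 49.5 FPKM, and 47.4 and 42.8 FPKM, and all 3 intervals of its ratio included 1.

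Among the cofactor and contact factors, F12, whose product starts the contact pathway, was at 371 (CD) and 324 FPKM (WD) in total RNA, 116 and 127 FPKM in the light fraction, and 471 and 456 FPKM in the heavy fraction. F5, the cofactor of factor X, was at 94.1 and 114 FPKM, 55.7 and 40.5 FPKM, and 58.9 and 56.1 FPKM. Klkb1, which encodes plasma prekallikrein, was at 58.1 and 61.1 FPKM, 12.8 and 29.0 FPKM, and 60.3 and 79.6 FPKM. The diets differed most for Klkb1 in the light fraction, by a ratio of 2.25 (1.45 to 3.67, from 24 and 118 fragments). F11, its neighbour on chromosome 16 (50152007 to 50201698 for both loci), had a ratio of 1.52 there and of 1.06 in total RNA. Kng1l1, a kininogen gene for which RefSeq lists Kng1 as a synonym, was at 586 and 899.9 FPKM in total RNA, 295 and 217 FPKM in the light fraction, and 974 and 1126 FPKM in the heavy fraction. Its ratio in total RNA was 1.54, above that of every gene counted here except F7. The rat kininogen genes are close copies, so reads could be shared between them.

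Fibrinogen is built from 3 chains in equal number, encoded by neighbouring genes on chromosome 2 (181987216 to 182038178). Fgb, for the beta chain, was at 3614 (CD) and 4259 FPKM (WD) in total RNA, 1664 and 1194 FPKM in the light fraction, and 4844 and 6899 FPKM in the heavy fraction. Fgg, for the gamma chain, was at 2121 and 2318 FPKM, 1064 and 516 FPKM, and 2517 and 2732 FPKM. Fga, for the alpha chain, was at 1325 and 1473 FPKM, 619.8 and 666 FPKM, and 1534 and 1563 FPKM. In total RNA the 3 chains had like ratios of WD to CD, namely 1.18 for Fgb, 1.09 (1.04 to 1.15) for Fgg and 1.11 (1.06 to 1.16) for Fga. In the light fraction they did not, with 0.717 for Fgb and 0.485 (0.447 to 0.527) for Fgg against 1.08 (1.01 to 1.15) for Fga. F13b, the carrier subunit of the fibrin-crosslinking factor XIII, was at 126 and 119 FPKM in total RNA, 40.8 and 34.9 FPKM in the light fraction, and 139 and 101 FPKM in the heavy fraction, where its ratio was 0.732.

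Because the 3 fibrinogen genes are neighbours with like ratios in total RNA, the 160 bases upstream of their start sites are shown for comparison. They come from the RefSeq annotation of GRCr8, whose coordinates differ from those of Rnor_6.0, and read 5′ to 3′ on the coding strand up to the base before the start site. Capitals mark matches to the letters of an interleukin-6 response element (CTGGGAA), of a C/EBP site (TTNNGCAA), of an HNF1 site (GTTAATNAT) or of a TATA box (TATAAA) on either strand. Fga has 2 annotated start sites, and the upstream one is shown.
Fgg (chr2:170652923-170653082, plus strand): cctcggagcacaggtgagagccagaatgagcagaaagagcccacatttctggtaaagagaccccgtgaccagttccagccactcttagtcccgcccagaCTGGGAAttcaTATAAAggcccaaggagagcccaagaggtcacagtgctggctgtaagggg
Fga (chr2:170672009-170672168, plus strand): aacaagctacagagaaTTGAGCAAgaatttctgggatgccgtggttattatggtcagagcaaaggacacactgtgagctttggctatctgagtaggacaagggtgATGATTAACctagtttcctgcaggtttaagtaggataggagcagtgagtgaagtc
Fgb (chr2:170700876-170701035, minus strand): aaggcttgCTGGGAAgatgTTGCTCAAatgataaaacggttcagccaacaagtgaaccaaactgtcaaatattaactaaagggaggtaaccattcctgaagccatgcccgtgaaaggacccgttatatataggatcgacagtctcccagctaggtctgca
The Fgg sequence held the interleukin-6 response element letters from -61 to -55 and the TATA letters from -50 to -45, counted from the start site. The Fgb sequence held the former from -152 to -146 beside C/EBP letters from -141 to -134. The Fga sequence held C/EBP letters from -144 to -137 and HNF1 letters from -55 to -47.

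The same letters were searched on both strands of the 250 bases upstream of the 27 of the 33 genes that the RefSeq table holds, and no matches within a promoter overlapped. The C/EBP letters were present in 11 of 27 promoters (40.7%), beside 8.07% of 7208 compared loci with a promoter and 9.99% of all 27457 genes of the table. The interleukin-6 response element letters were present in 8 (29.6%), beside 9.82% and 10.2%. TATAAA was present in 1 (3.7%), that of Fgg, beside 6.91% and 14.1%, and CAAAGTCC, part of an HNF4 site, in 0, beside 1.36% and 1.31%. HNF1, HNF4 and C/EBP are transcription factors known for their part in hepatocyte gene expression. A match is a description of letters only and not evidence of binding.

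The HNF1 letters were in 4 promoters (14.8%), beside 0.583% of the loci and 0.747% of all genes. The matches, in capitals, are shown with 10 bases on either side on the coding strand in GRCr8, because all lay near the start site, between -76 and -47.
Plg (chr1:50915458-50915486, minus strand): ggcccagacaATGATTAACctcatcagac
Fga (chr2:170672104-170672132, plus strand): gacaagggtgATGATTAACctagtttcct
C4bpa (chr13:44663529-44663557, minus strand): tgcttcgtctGTTAATCATccaccgggac
F13b (chr13:53681567-53681595, plus strand): agatgtggtaATTATTAACttgttttgtc
The letters lay on the strand of the gene in C4bpa and on the opposite strand in the other 3. The 4 genes had ratios of WD to CD in total RNA of 1.07 (Plg), 1.11 (Fga), 1.12 (C4bpa) and 0.95 (F13b).

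Fibrinolysis was represented by Plg, which encodes plasminogen, and by the genes of its inhibitors. Plg was at 545 (CD) and 581 FPKM (WD) in total RNA, 215 and 328 FPKM in the light fraction, and 658 and 651 FPKM in the heavy fraction. Cpb2, for a carboxypeptidase that slows clot lysis, was at 418 and 430.5 FPKM, 347 and 249 FPKM, and 592 and 544 FPKM. The diets were close in total RNA, with ratios of 1.07 for Plg and 1.03 (0.916 to 1.16) for Cpb2, and differed in opposite directions in the light fraction, by 1.53 and 0.719 (0.625 to 0.827). Serpinf2, which encodes the plasmin inhibitor, had ratios of 0.882 (0.769 to 1.01) in total RNA, 0.81 (0.684 to 0.961) in the light fraction and 1.13 (0.987 to 1.29) in the heavy fraction.

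The coagulation inhibitors were measured by Serpinc1, which encodes antithrombin, and Serpind1, for heparin cofactor II. Serpinc1 was at 1621 (CD) and 1715 FPKM (WD) in total RNA, 1494 and 827 FPKM in the light fraction, and 1468 and 1237 FPKM in the heavy fraction. Serpind1 was at 143 and 190.0 FPKM, 75.6 and 105 FPKM, and 255 and 278 FPKM. WD was lower for Serpinc1 in the light fraction, with a ratio of 0.554. Serpind1 had the second highest ratio of the 33 genes in total RNA (1.33).

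Over the light fraction as a whole, 6 of 33 genes were at least 1.5-fold higher in WD (25.9% of all loci) and 7 were at a ratio of 0.75 or less (26.8%). The 6 were Proc, Klkb1, Mbl1, Cfi, Plg and F11, and the 7 were C6, Fgg, Serpinc1, C1r, Fgb, Cpb2 and F5. Among the 647 loci of at least 100 FPKM, the shares past these thresholds were 14.2% and 32.8%. The median log2 ratio of the genes was -0.02, beside 0.02 for all loci. With the libraries rescaled to an equal FPKM sum, the medians were -0.37 for the genes and -0.29 for all loci. Then 12 genes had a ratio of at most 0.75 and 4 were at least 1.5-fold higher, while the shares of all loci were not computed on that scale. Plg (log2 ratio 0.26) and F11 (0.25) were no longer among the higher genes. In the heavy fraction, 0 genes were at least 1.5-fold higher (21.7% of all loci) and 4, namely C6, F9, F13b and Mbl1, were at a ratio of 0.75 or less (25.8%). The median was 0.03, beside -0.02 for all loci. Among the 647 abundant loci, the shares past the thresholds in the heavy fraction were 9.12% and 12.2%. Fgb had the highest ratio in the heavy fraction (1.42).

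To compare the mRNAs between the light and heavy fractions, ribosome density was taken as heavy fraction FPKM divided by light fraction FPKM. FPKM is scaled library by library, so a density of 1 is not an even split of an mRNA. Densities place a gene relative to other loci and do not give the share of its mRNA in a fraction. Most of the genes had a higher density than the median locus in both diets. In CD, 24 of 33 genes had a density of at least 1.5 (32.9% of all loci) and 1 of at most 0.75 (36.6%), with a median of 2.05 beside 1.01 for all loci. In WD, 22 genes had a density of at least 1.5 (31.4%) and 2 of at most 0.75 (38.5%), with a median of 2.10 beside 1. Abundant loci had higher densities as well, with medians of 1.39 (CD) and 1.62 (WD) among the 647 loci of at least 100 FPKM. Of those loci, 45.1% (CD) and 52.6% (WD) had a density of at least 1.5, and 24.0% and 23.2% of at most 0.75.

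Densities differed widely between the genes. C6 had the highest density in both diets, 7.52 (6.57 to 8.65) in CD and 11.4 (9.68 to 13.7) in WD, and F9 the lowest, 0.362 (0.305 to 0.427) and 0.247 (0.206 to 0.293). F9 was thus the vitamin K-dependent factor with a density below 1 by its interval in both diets, whereas F2 was at 3.65 (3.26 to 4.1) and 3.27 (2.99 to 3.58). Pros1, at 0.91 (0.695 to 1.19) and 0.864 (0.677 to 1.1), had intervals that included 1. Chains of the same protein differed too. The density of C8b was 3.07 (2.64 to 3.58) in CD and 3.72 (3.31 to 4.2) in WD, that of C8a 1.03 (0.903 to 1.18) and 0.933 (0.838 to 1.04), and that of C8g 1.24 (0.927 to 1.65) and 1.05 (0.812 to 1.35). The neighbours C1r and C1s were at 1.14 and 2.58 in CD and at 1.82 and 2.99 in WD. Across the 20 genes with fragment numbers, Spearman's rho of density with relative effective transcript length, both inferred from the same values, was 0.05 in CD and 0.07 in WD.

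**Figure D3:**
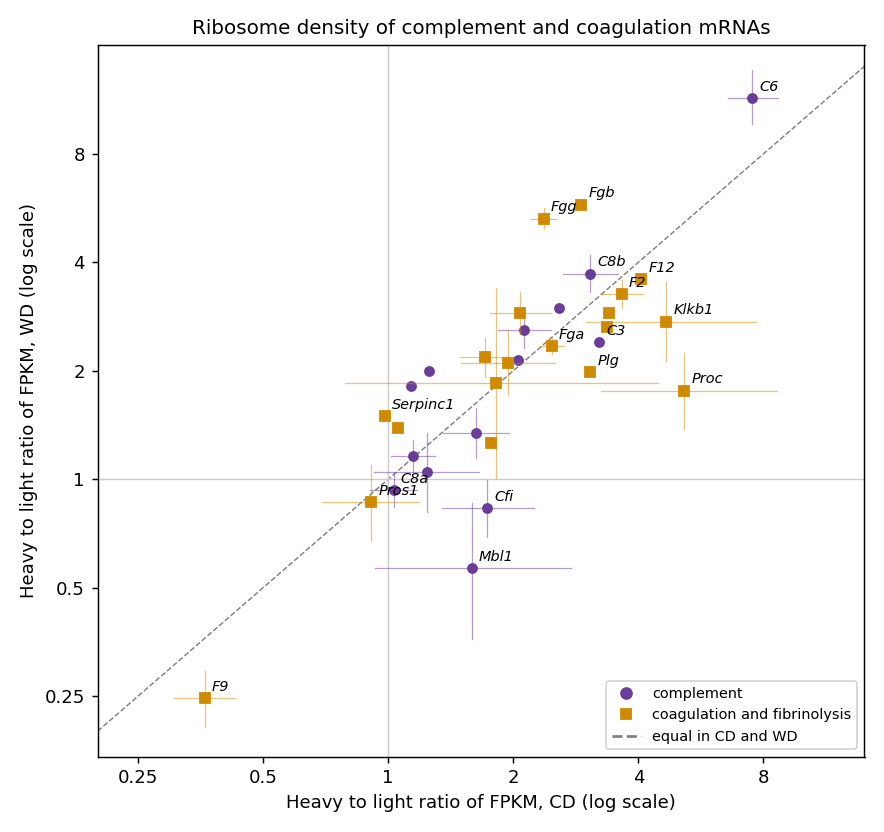
Ribosome density, heavy over light fraction FPKM, of the 33 genes in WD (vertical) against CD (horizontal), both on log scales. Circles are complement genes, squares coagulation and fibrinolysis genes, thin lines 95% counting intervals where there are any, and the dashed line marks equal density in both diets. C6 lies at the upper right (7.52 and 11.4) and F9 at the lower left (0.362 and 0.247), with Fgg and Fgb above the line and Proc, Mbl1 and Cfi below it.

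The question of whether the WD altered ribosome density was addressed by the ratio of the density in WD to that in CD. The ratio was 1.5 or more for 6 of 33 genes (27.7% of all loci) and at most 0.75 for 8 (36.1%). Among the 647 loci of at least 100 FPKM, these shares were 24.1% and 18.2%. With the libraries rescaled to an equal FPKM sum, the counts of genes were 11 and 4. Shares of all loci were not computed after rescaling, but the median log2 ratio of all loci rose too, from -0.02 to 0.28. The methods of the study set these thresholds on CD over WD. Set that way, 7 genes (32.9% of all loci) had the higher density in WD and 5 (30.9%) in CD. The median log2 ratio was -0.07, beside -0.02 for all loci, and it turned to 0.25, beside 0.28, under that rescaling. Counting intervals lay above 1 for 6 of 20 genes, beside 7.02% of loci, and below 1 for 5, beside 5.62%. Among the 426 abundant loci with fragment numbers these shares were 28.2% and 15.7%.

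The genes at least 1.5-fold higher were Fgg (2.24, interval 2.03 to 2.47), Fgb (1.99), C1r (1.60), Masp2 (1.60), C6 (1.52, 1.23 to 1.89) and Serpinc1 (1.52). The fibrinogen chains parted here. Density went from 2.37 in CD to 5.29 in WD for Fgg and from 2.91 to 5.78 for Fgb, while Fga was at 2.47 and 2.35 (ratio 0.948, interval 0.871 to 1.03). The 8 genes on the other side were Proc (0.342, 0.208 to 0.579), Mbl1 (0.356, 0.189 to 0.694), Cfi (0.48, 0.356 to 0.65), Klkb1 (0.586, 0.359 to 0.98), Plg (0.648), F9 (0.682, 0.538 to 0.866), F11 (0.713) and C3 (0.746). For Proc the density was 5.15 in CD and 1.76 in WD, and for Mbl1 it was 1.59 and 0.566.

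Most of these differences lay in the light fraction, the one with the WD library that stood apart. Fgg had 1117 fragments in the CD and 1179 in the WD light library, and 2460 and 2735 in the heavy ones. With the depths of these libraries, a locus with the same number of fragments in all 4 has a density ratio of 2.12. Whether depth had a part in the ratio of Fgg was not tested. With total RNA as the denominator instead, 1 gene was at least 1.5-fold higher, Masp2, with a log2 ratio of 0.73. At most 0.75 were 2 genes, F7 and F9, the latter with a log2 ratio of -0.65. The shares of all loci past these thresholds were not computed with this denominator. The log2 ratio was then 0.27 for Fgb, -0.01 for Fgg, -0.06 for C6 and -0.33 for Serpinc1, so that those of the last 3 changed sign. It was -0.21 for Proc, -0.27 for Mbl1, -0.01 for Cfi and 0.33 for Klkb1. For C1r it was 8.7e-06, for Plg -0.11, for C3 -0.02 and for F11 0.03. Masp2 and F9 were the genes past a threshold in the same direction by both measures. Under the equal FPKM sum, with the light fraction, Proc, Mbl1, Cfi and Klkb1 remained at most 0.75, while F9 (log2 ratio -0.22), Plg, F11 and C3 did not.

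Other genes of the pathways, which were not among the 40, were listed by name. Of 23 complement genes, such as receptors, C1q chains and factor H, 19 could be compared. In total RNA 3 were at least 1.5-fold higher in WD, 4 had a ratio of at most 0.75 and 12 lay between, with a median log2 ratio of 0.04. All loci had shares of 17.7% and 22.7% past these thresholds, which for 19 genes is close to the counts. For ribosome density, 7 were above and 7 below the thresholds, beside 27.7% and 36.1% of all loci. Of 24 coagulation genes, such as von Willebrand factor, thrombomodulin and the enzymes of vitamin K-dependent carboxylation, 14 could be compared, of which 1 was higher, 3 were lower and 10 lay between in total RNA, with a median of 0.00. For density, 0 were above and 7 below, beside the same 27.7% and 36.1%. The authors' bounds of the 2 diets overlapped for each gene past a threshold in total RNA, so none is named.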

How the data were processed

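The authors pooled RNA of 3 rats per library and depleted ribosomal RNA. Reads were aligned by them to Rnor_6.0 (TopHat) and quantified (Cufflinks, Cuffnorm). The submitters' processing notes also name bcl2fastq, and the annotation is not given in the sources used here. The deposited values are FPKM per locus, normalized between the 6 libraries, each with a lower and an upper bound. The study also gives a Riboseq alignment route, and whether the fraction libraries took it is not certain. Light and heavy libraries were told apart by the last letter of their titles.

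The members and lists were chosen with earlier results of these data known. Loci with a symbol and an estimate marked as successful entered if their mean was 1 FPKM or more, and of repeated symbols the locus highest on average was used. Ratios were computed after adding 0.1 FPKM. The study set thresholds of 1.5 and 0.75 on ribosome density in CD over WD. Here they were applied to every ratio, with WD over CD for the diets. With 1 library per group no test was run.

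Values in all 6 libraries were given by rule for the 2 members with the highest mean in each role group, for members past a threshold in total RNA with bounds that do not overlap (there were none), for the 3 highest and 3 lowest members of each comparison, and for members near a paralog or on a merged symbol. Fga was added after its values were seen. Other pathway genes were to be named only if past a threshold with bounds that do not overlap.

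Fragment numbers were inferred for loci with 1 start site as whole numbers that give the FPKM ratios between libraries within a relative tolerance of 1.5e-05, with under 0.01 chance matches expected. They are estimates, and the inference was tested on simulated data. Intervals of 95% are exact (Clopper-Pearson) for ratios of 2 libraries. For the ratio of ribosome densities in WD and CD they are Wald intervals of the log ratio. A small constant was added there to each fragment number. Promoters came from the RefSeq table of GRCr8, and no coordinates were converted. Software was matplotlib 3.10.9, numpy 2.4.6, pandas 2.3.3, Python 3.11.15 and scipy 1.17.1.

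Alternatives were pseudocounts of 1 and 0.01 FPKM, a mean of at least 10 FPKM and no filter, centring on the median of all loci, libraries rescaled to an equal FPKM sum, heavy fraction over total RNA, an inverse lower threshold, and members whose symbol is on 1 locus only. The addition of 4 loci with merged or older symbols and the thresholds on CD over WD were chosen after seeing the data. Protein sequences were not used here.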

Additional observations from a re-analysis of the deposited data

Results flagged for a closer look

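For Mbl1, the fractions differed in the direction of the diets. The WD to CD ratio was 2.08 in the light fraction and 0.739 in the heavy fraction, where the counting interval included 1. Likewise, the heavy to light ratio was 1.59 in CD, with an interval of 0.932 to 2.75 that included 1, and 0.566 in WD. Each of these rests on 1 library per group, and the difference was not tested.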

How the results depend on the processing

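No paired analysis was possible because each group holds 1 library. Of the counts and medians recomputed under the alternatives, 155 stayed close to the reported value and 13 moved. With the libraries rescaled to an equal FPKM sum, which shifted the median of all loci by -0.31 for the light fraction, 0.26 for the density in WD and 0.30 for the ribosome density change, 12 members had a light fraction ratio of at most 0.75 (median -0.37), the median density in WD was 1.38 (log2), and for ribosome density 11 members were at least 1.5-fold higher, 4 at most 0.75, with a median of 0.25. With an inverse lower threshold, the members below it were 3 in the light fraction, 1 in the heavy fraction and 5 for ribosome density, where they were also 5 with the thresholds set on CD over WD (added after seeing the data). With the heavy fraction over total RNA, 1 member was above and 2 were below the thresholds of ribosome density, and 5 single members reversed, namely Fgg (-0.0097), Serpinc1 (-0.33), C6 (-0.059), Klkb1 (0.33) and F11 (0.031, all log2). With the 4 added loci, chosen after seeing the data, 2 genes were at least 1.5-fold higher in total RNA, by the addition of Kng1l1. The cause of the other shifts was not tested, apart from the change of threshold, which acts by its construction. Shares of all loci past the thresholds were not computed for the rescaled libraries or for the heavy fraction over total RNA. Of single members, 525 values stayed close, 58 moved and 5 reversed. Leaving out replicates was not possible. Depth limited the lowest member, F7, whose ratio of 1.71 from 17 and 28 fragments was not resolved from 1.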
